A study of Homo sapiens with 6 samples.

Results

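The genes of the collagen chains, the laminin chains and fibronectin (FN1) were examined for binding of DPF3a, SMAD4 and p300 in the established cell line 786-O, which derives from a clear cell renal cell carcinoma. Members were the protein-coding genes whose symbol follows the collagen pattern (COL, a number, A, a number) or the laminin pattern (LAMA, LAMB or LAMC and a number), and FN1. This rule gave 57 genes, with 44 collagens, 12 laminins and FN1, of 20046 protein-coding genes. A peak belonged to a gene when its summit lay inside the gene or up to 5000 bp upstream of it. These genes held 222 of the 51530 DPF3a peaks, 185 of the 46367 SMAD4 peaks and 58 of the 20380 p300 peaks.

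Sequencing of immunoprecipitated chromatin (ChIP-seq) was carried out on 2 libraries for each factor, 6 samples in all. DPF3a, the short isoform of a SWI/SNF chromatin remodelling subunit, was precipitated through an HA tag from cells that overexpress the tagged protein, after fixation with the protein crosslinker DSG and formaldehyde. SMAD4, the partner that the receptor-activated SMAD proteins of the TGF-β and BMP pathways have in common, and p300, a histone acetyltransferase, were precipitated with antibodies to the proteins themselves, after formaldehyde alone. For these 4 libraries, the study describes 786-O cells without mention of the transgene. Each factor has a single peak list that the labels trace to both libraries, so no value has a spread between replicates and no test between factors or genes was possible. Shares carry a 95% Wilson interval, which reflects the error of counting alone. Fixation, antibody, cells and depth differ between the lists, and their effects on a difference between lists cannot be told apart from that of the factor. Positions are in hg38 and count from 1.

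Collagens and laminins are mostly secreted matrix proteins, and each molecule is wound from several chains. In some molecules different genes encode the chains, and in others a single gene does. Fibrillar collagens give tissue its tensile strength. Collagen IV and the laminins build the basement membrane on which epithelial cells such as those of the kidney tubule rest. Many matrix genes, among them COL1A1, COL1A2 and FN1, are textbook targets of TGF-β, which acts through SMAD proteins, and matrix made by tumour cells is known to bear on their migration. The study itself asked whether DPF3a acts on genes of the TGF-β pathway.

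The sequences around the DPF3a summits of the strongest common sites are given first. Peaks of 2 lists were called shared if each covered at least 0.5 of the other, and a site of all 3 factors was a DPF3a peak shared with a SMAD4 peak and with a p300 peak. The windows hold 101 bases around the DPF3a summit, read on the plus strand of hg38. The summit of another factor can lie outside the window, as at COL4A2, where that of SMAD4 was 276 bp away. Capitals mark exact matches, on either strand, to 8 consensus sequences, which were AP-1 (TGACTCA), RUNX (TGTGGTT), TEAD (ACATTCC), the SMAD palindrome (GTCTAGAC), a GC-rich SMAD element (GGCGCC), ETS (ACCGGAA), SP1 (GGGGCGGGG) and the CCAAT box. Among all DPF3a windows at protein-coding genes, 19.7% held AP-1, 10.1% the CCAAT box, 6.19% RUNX, 4.66% the GC-rich SMAD element and 3.98% TEAD. A match is a run of letters and says nothing of binding by the factor. The sites of all 3 factors are shown for the 6 genes with the highest product of the 3 percentiles of fold enrichment, outside untranslated sequence and leaving out COL14A1. The site in intron 3 of COL14A1 ranked between those of COL26A1 and COL4A2, and its window is not printed.
COL26A1, intron 1 (chr7:101402246-101402346): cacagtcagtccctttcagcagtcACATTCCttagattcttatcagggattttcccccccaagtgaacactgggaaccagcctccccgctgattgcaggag
COL4A2, intron 3 (chr13:110347722-110347822): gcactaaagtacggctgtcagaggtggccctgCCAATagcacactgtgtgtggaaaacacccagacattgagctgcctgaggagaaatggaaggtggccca
COL5A1, upstream of the gene (chr9:134637668-134637768): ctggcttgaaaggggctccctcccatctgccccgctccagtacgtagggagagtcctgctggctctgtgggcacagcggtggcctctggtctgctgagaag
COL13A1, intron 2 (chr10:69839798-69839898): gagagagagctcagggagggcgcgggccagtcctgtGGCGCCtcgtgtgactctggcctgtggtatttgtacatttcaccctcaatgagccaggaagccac
COL27A1, intron 37 (chr9:114279056-114279156): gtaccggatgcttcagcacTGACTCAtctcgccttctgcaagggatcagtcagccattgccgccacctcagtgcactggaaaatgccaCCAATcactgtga
COL16A1, intron 2 (chr1:31701194-31701294): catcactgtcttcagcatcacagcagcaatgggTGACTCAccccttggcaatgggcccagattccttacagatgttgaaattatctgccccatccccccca
AP-1 letters stood in the COL27A1 and COL16A1 windows, and TEAD letters in the COL26A1 window. The COL5A1 window held none of the 8 consensus sequences.

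Where a gene had no site of all 3 factors, its strongest site of DPF3a and SMAD4 was considered, and the 4 strongest of these are shown.
COL24A1, intron 37 (chr1:85850306-85850406): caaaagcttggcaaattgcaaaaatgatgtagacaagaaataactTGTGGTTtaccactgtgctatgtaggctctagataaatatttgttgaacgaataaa
COL21A1, intron 17 (chr6:56101208-56101308): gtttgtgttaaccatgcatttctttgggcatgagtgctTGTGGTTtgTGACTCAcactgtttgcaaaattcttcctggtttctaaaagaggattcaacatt
COL28A1, intron 11 (chr7:7492604-7492704): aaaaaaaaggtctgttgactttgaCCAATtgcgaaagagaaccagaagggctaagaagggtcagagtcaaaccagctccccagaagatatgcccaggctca
COL12A1, own promoter (chr6:75206122-75206222): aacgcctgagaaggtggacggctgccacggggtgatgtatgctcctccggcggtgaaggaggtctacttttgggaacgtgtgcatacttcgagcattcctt
The COL21A1 window held a RUNX and an AP-1 consensus side by side. In COL24A1 a RUNX consensus stood close to the summit, and the COL12A1 window, at a start of that gene, held no match.

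The comparison asked how many of these genes carried each factor. DPF3a had at least 1 peak at 47 of the 57 genes, which is 82.5% (70.6 to 90.2), beside 65.8% of all protein-coding genes. For SMAD4 it was 42 genes, 73.7% (61.0 to 83.4), beside 72.2%. For p300 it was 31 genes, 54.4% (41.6 to 66.6), beside 51.5%. Only the DPF3a interval lay above the share of all genes. The p300 count depended on the score threshold, since 9 genes and 10 peaks were left with scores over 100. A score is −log10 q multiplied by 10, and the median −log10 q of the whole p300 list was 6.79. Most p300 peaks of the whole list were thus lost at that threshold too, and the share of all genes was not recomputed there. Gene length has to be read beside these counts, because long genes offer more room for a summit and 32 of the 57 genes were over 100 kb long.

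The shares were therefore taken within classes of gene length. Of the 32 genes over 100 kb, 31 had a DPF3a peak, 96.9% (84.3 to 99.4) beside 89.2% of all genes of that length. SMAD4 had a peak at 24 of them, 75% (57.9 to 86.7) beside 87.4%, and p300 at 21, 65.6% (48.3 to 79.6) beside 74.1%. Of the 18 genes from 30 to 100 kb, DPF3a had a peak at 11, 61.1% (38.6 to 79.7) beside 78.3%, SMAD4 at 12, 66.7% (43.7 to 83.7) beside 83.6%, and p300 at 7, 38.9% (20.3 to 61.4) beside 63.8%. Of the 7 genes under 30 kb, 5 had a DPF3a peak beside 50.7%, 6 a SMAD4 peak beside 60.6% and 3 a p300 peak beside 36.8%. The p300 share of the middle class and the SMAD4 share of the long class lay below that of all genes with intervals that left it out. The DPF3a intervals included the share of all genes in each length class.

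**Figure D1:**
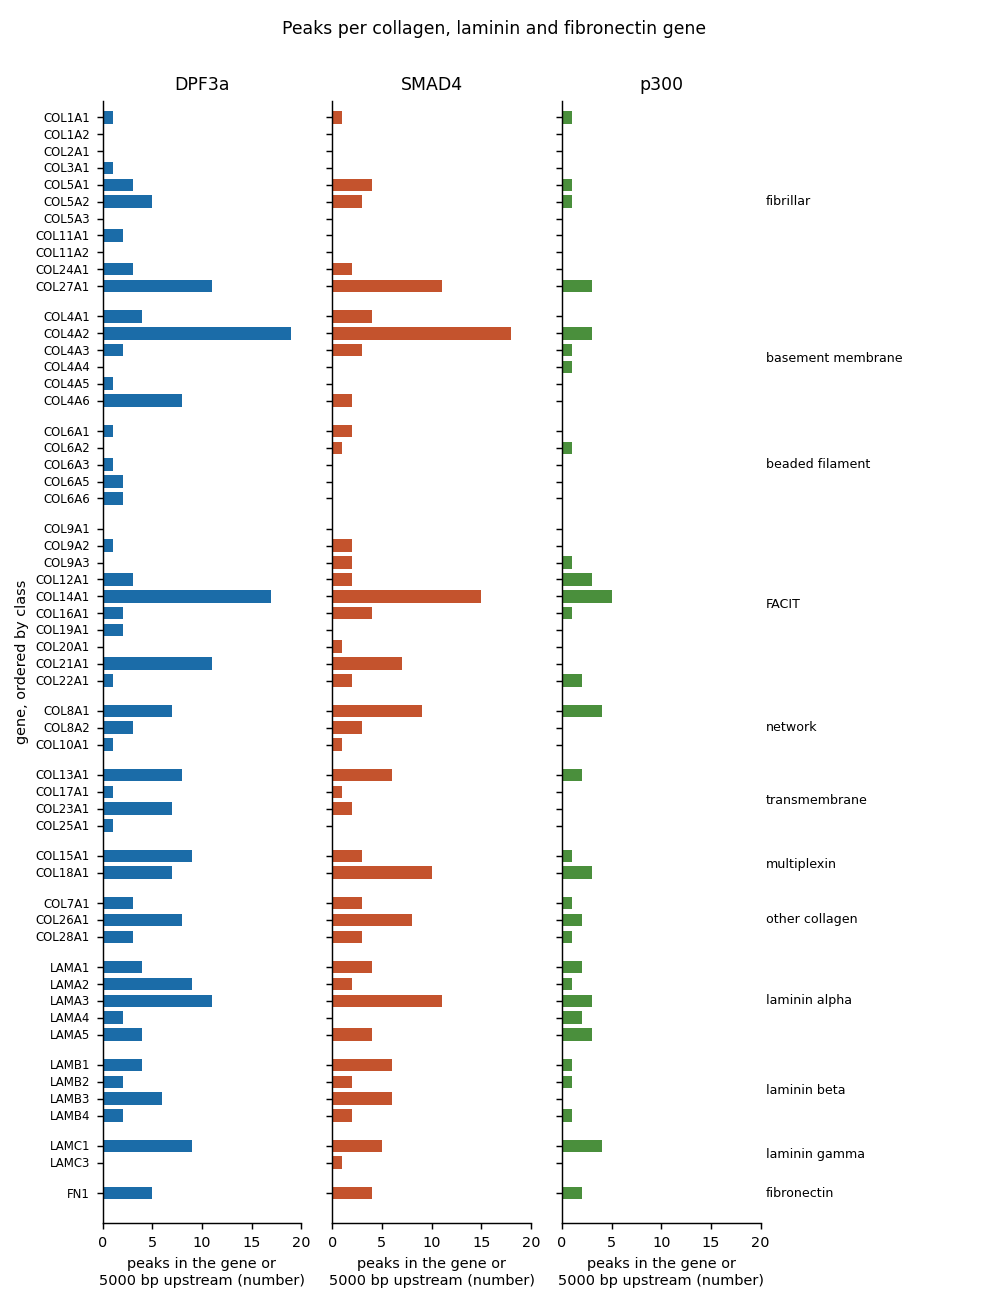
Number of peaks (horizontal axis) in the DPF3a, SMAD4 and p300 lists at 56 of the 57 genes (vertical axis), ordered by class; a bar is the number of summits in the gene or up to 5000 bp upstream, with no error because each factor has 1 list. COL4A2 and COL14A1 have the longest bars for DPF3a (19 and 17) and SMAD4 (18 and 15), and the p300 bars reach 5 at most.

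The lists named partly different genes. A peak in every list was present at 27 genes, 47.4%, beside 46.7% of all protein-coding genes. Within length classes the share was lower than at all genes, 59.4% (42.3 to 74.5) beside 70.6% over 100 kb and 33.3% (16.3 to 56.3) beside 58.8% from 30 to 100 kb, where the interval left out the share of all genes. A DPF3a peak shared with SMAD4 was present at 37 genes, 64.9% (51.9 to 76.0), beside 54.1%. It was present at 75% (57.9 to 86.7) beside 77.8% over 100 kb and at 44.4% (24.6 to 66.3) beside 65.7% from 30 to 100 kb. DPF3a alone marked 8 genes, which were COL3A1, COL11A1, COL19A1, COL25A1, COL4A5, COL6A3, COL6A5 and COL6A6. They make up 14.0% (7.29 to 25.3) of the members, beside 2.25% of all protein-coding genes. Of the genes over 100 kb it was 18.8% (8.89 to 35.3) beside 3.3%, and of those from 30 to 100 kb 11.1% (3.10 to 32.8) beside 2.39%. DPF3a and SMAD4 peaks but none of p300 were found at 11 genes, 19.3% (11.1 to 31.3), beside 16.4%. SMAD4 alone marked COL20A1 and LAMC3. SMAD4 and p300 without DPF3a marked COL6A2 and COL9A3, DPF3a and p300 without SMAD4 marked LAMA4, and p300 alone marked COL4A4. The only peak of COL4A5 also counted for COL4A6, and that of COL4A4 for COL4A3, because each lay near the starts of both genes.

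No peak of any list was found at 5 genes, 8.77% (3.81 to 18.9), beside 24.5% of all protein-coding genes. Of these, 4 were from 30 to 100 kb long, where the share was 22.2% (9.0 to 45.2) beside 12.9%, and none was over 100 kb, where it is 7.2% of all genes. The 5 genes were COL1A2, the partner chain of COL1A1 in type I collagen, COL2A1, the main collagen of cartilage, COL5A3, COL9A1 and COL11A2. The longest of them is COL9A1, which spans 87.0 kb. In a peak list, absence says only that no summit passed the score threshold of the authors.

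The fibrillar collagens were compared chain by chain, because COL1A1 and COL1A2 form type I collagen together and COL5A1 and COL5A2 form type V. Of 11 fibrillar genes, 7 had a DPF3a peak, 5 a SMAD4 peak and 4 a p300 peak, to be read beside 65.8%, 72.2% and 51.5% of all protein-coding genes. COL1A1 had a single peak in each list, near its start, with a fold enrichment (the read pileup at the summit over the local background, each plus 1) of 6.03 in the DPF3a list, 6.81 in the SMAD4 list and 3.91 in the p300 list. The p300 peak touched both others, but the overlap stayed under the limit for a shared site. COL3A1, the chain of type III collagen, had a DPF3a peak 4826 bp upstream of its start, with a fold enrichment of 6.34, and nothing else.

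COL5A1 had 3 DPF3a, 4 SMAD4 and 1 p300 peak, and each DPF3a peak was shared with SMAD4. Its site of all 3 factors, 4085 bp upstream of the gene at the DPF3a summit, reached 12.1 in the DPF3a, 10.8 in the SMAD4 and 4.71 in the p300 list. Percentiles place each value within its own list, and these were the 91.9th, 91.8th and 39.7th. COL5A2 had 5 DPF3a, 3 SMAD4 and 1 p300 peak, with a DPF3a peak of fold enrichment 14.2 in intron 6 that SMAD4 shared at 8.30. No peak of COL5A1 or COL5A2 lay in a promoter of the gene itself. COL27A1, also a fibrillar collagen, had 11 DPF3a and 11 SMAD4 peaks, 7 of them shared, and 3 p300 peaks. COL24A1 held the member peak of highest DPF3a fold enrichment, 18.2 in intron 58 (chr1:85734760-85735497), which SMAD4 shared at 8.78 and p300 did not touch.

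Collagen IV makes the network of the basement membrane, and its 6 genes lie as 3 pairs that are transcribed away from each other from a common promoter region. COL4A2 had the most peaks of the 57 genes, namely 19 DPF3a, 18 SMAD4 and 3 p300 peaks. Of its DPF3a peaks, 14 were shared with SMAD4 and 16 lay in introns, and the median gap between neighbouring summits was 8.95 kb. The fold enrichments of the DPF3a peaks of COL4A2 ran from 3.62 to 15.2. COL4A1, the partner in the same collagen molecule and of similar length, had 4 DPF3a and 4 SMAD4 peaks with maxima of 6.08 and 5.01, and no p300 peak.

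The common promoter regions of the pairs, taken up to 1000 bp beyond the gene starts, each held a single peak, and the factor differed. Between COL4A1 and COL4A2, whose starts are 1345 bp apart, it was a SMAD4 peak with a fold enrichment of 5.01. Between COL4A3 and COL4A4, 171 bp apart, it was a p300 peak of 15 reads and a fold enrichment of 5.0. Between COL4A5 and COL4A6, 341 bp apart, it was a DPF3a peak of 12 reads and a fold enrichment of 5.96. None of the 3 overlapped a peak of another list. COL4A6 also carried 7 DPF3a peaks in its introns, of which 1 was shared with SMAD4, and COL4A3 carried 2 DPF3a peaks that were both shared with SMAD4.

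Collagen VI forms beaded filaments around cells from COL6A1, COL6A2 and COL6A3 chains. COL6A1 had a DPF3a peak in its promoter, with a fold enrichment of 7.03, that SMAD4 shared at 7.86. COL6A2 had a SMAD4 peak of 7.22 and a p300 peak of 4.04 that were shared near its start, and no DPF3a peak. COL6A3 had only a DPF3a peak in intron 32, with a fold enrichment of 6.84. The peaks of the 5 beaded-filament genes numbered 6 for DPF3a, 3 for SMAD4 and 1 for p300.

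**Figure D2:**
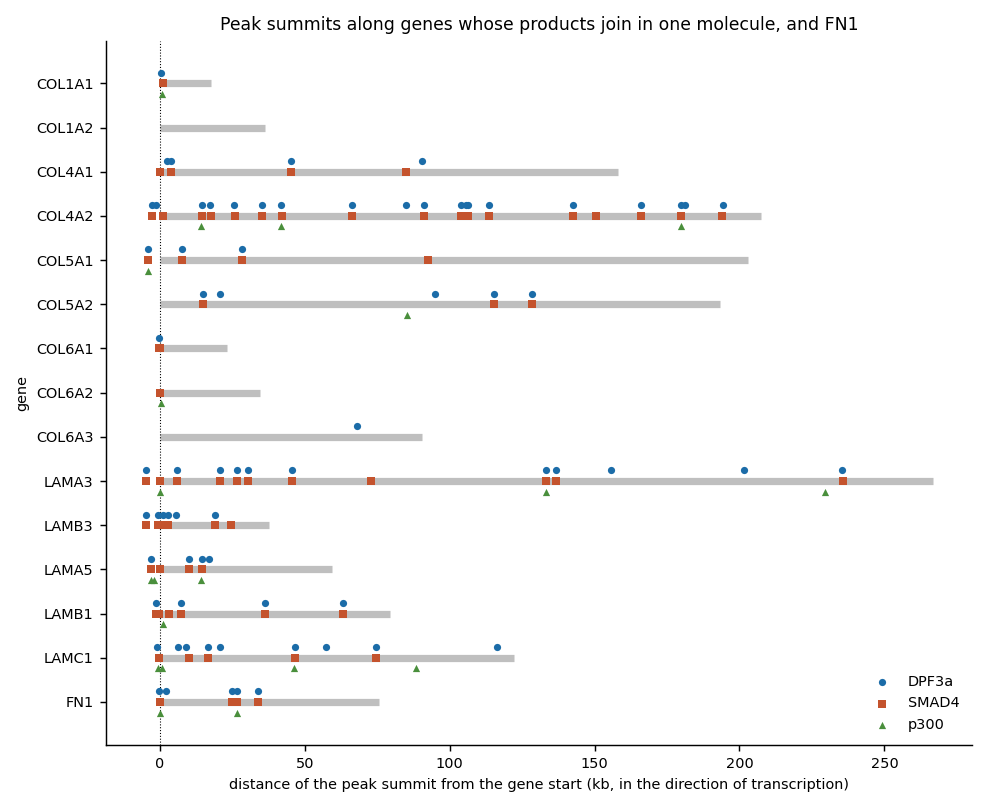
Position of each summit as distance from the gene start in kb (horizontal axis, positive into the gene; grey bar, gene span) for genes whose products join in common molecules and for FN1; circles are DPF3a, squares SMAD4 and triangles p300. COL4A2 and LAMA3 carry DPF3a and SMAD4 summits along most of their length, whereas COL6A1 carries both at its start, COL6A2 carries SMAD4 and p300 summits there, and COL1A2 carries none.

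The FACIT collagens, which sit on the surface of fibrils, held the member with the most p300 peaks. COL14A1 had 17 DPF3a, 15 SMAD4 and 5 p300 peaks, with 12 DPF3a peaks shared with SMAD4, and none lay in its own promoters. COL21A1 had 11 DPF3a and 7 SMAD4 peaks, and all 7 SMAD4 peaks were shared with DPF3a, while p300 had no peak there. COL16A1 held the member peak of highest SMAD4 fold enrichment, 13.8, at an internal transcript start in intron 22 (chr1:31689596-31690278), where DPF3a had 16.3 and p300 no peak. COL12A1 had 3 DPF3a and 2 SMAD4 peaks, and 2 of these sites were shared. Its 3 p300 peaks lay elsewhere, in coding exons 12, 24 and 32, with 14 or 15 reads at the summit, and touched no other list.

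Among the remaining collagens, the multiplexins COL15A1 and COL18A1 had peaks in every list, and COL18A1 is the source of the angiogenesis inhibitor endostatin. COL18A1 had 7 DPF3a, 10 SMAD4 and 3 p300 peaks, and its SMAD4 peak in intron 2 reached a fold enrichment of 13.1. COL15A1 had 9 DPF3a peaks in its introns, of which SMAD4 shared 3. COL13A1, a transmembrane collagen, had 8 DPF3a, 6 SMAD4 and 2 p300 peaks, each SMAD4 peak shared with DPF3a, and its SMAD4 peak in intron 35 reached 13.3. COL26A1 had 8 DPF3a and 8 SMAD4 peaks, 7 of them shared, all in introns. COL8A1, which forms a hexagonal network in vessel walls and the eye, had 7 DPF3a, 9 SMAD4 and 4 p300 peaks. The DPF3a and p300 peaks of COL8A1 were never shared. COL7A1, the anchoring fibril of skin, had 3 peaks of DPF3a and 3 of SMAD4 that were shared pairwise, and 2 of these sites lay at its far end, next to the start of UCN2.

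The laminins were occupied in larger proportion than the collagens, though the intervals are wide with 12 genes. DPF3a had a peak at 11 of 12 laminin genes, 91.7% (64.6 to 98.5), and at 35 of 44 collagen genes, 79.5% (65.5 to 88.8). SMAD4 had a peak at 11 laminin genes and at 30 collagen genes, 68.2% (53.4 to 80.0). For p300 it was 10 laminin genes, 83.3% (55.2 to 95.3), and 20 collagen genes, 45.5% (31.7 to 59.9). The intervals of the families overlapped in each list. The shares of all protein-coding genes were 65.8% for DPF3a, 72.2% for SMAD4 and 51.5% for p300. Over 100 kb they were 89.2%, 87.4% and 74.1%, which the laminin intervals included. The median span was 96.1 kb for the laminins and 144.8 kb for the collagens.

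LAMA3 and LAMB3 encode chains of the laminin to which epithelial cells attach through hemidesmosomes. LAMA3 had 11 DPF3a and 11 SMAD4 peaks, 9 of them shared, and 3 p300 peaks, of which the strongest, with a fold enrichment of 6.74 in intron 60 (chr18:23918665-23918952), touched no other list. LAMB3 had 6 DPF3a and 6 SMAD4 peaks within a gene of 37.6 kb, 5 of them shared, and no p300 peak. Its DPF3a peak of highest fold enrichment, 10 in intron 6, held an AP-1 consensus, and SMAD4 shared it at 4.88. DPF3a and SMAD4 thus had peaks in similar numbers within both of these genes, and p300 fewer.

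LAMA5, LAMB1 and LAMC1 encode the chains of a laminin found in many epithelial basement membranes. LAMA5 had 4 DPF3a, 4 SMAD4 and 3 p300 peaks, with a site of all 3 factors in intron 3 at the low end of each list (fold enrichments of 5.12, 4.08 and 3.92). LAMB1 had 4 DPF3a peaks, each shared with SMAD4, which had 6, and its p300 peak, of fold enrichment 3.22, touched neither. LAMC1 had 9 DPF3a, 5 SMAD4 and 4 p300 peaks. In intron 1 of LAMC1, a p300 peak of fold enrichment 7.41 touched a site of DPF3a (10.7) and SMAD4 (6.81) without reaching the limit for a shared site. LAMA2, the laminin chain of muscle, had 9 DPF3a peaks, of which 7 touched no other list, including a peak of fold enrichment 17.0 in intron 4 (chr6:129136711-129137206).

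FN1, the fibronectin gene, had 5 DPF3a, 4 SMAD4 and 2 p300 peaks. Near its start the fold enrichment was 3.74 in the DPF3a, 6.39 in the SMAD4 and 8.19 in the p300 list. The p300 value (chr2:215435510-215436157, over exon 1) was the highest at the 57 genes and the 98.4th percentile of its list, while the DPF3a value was the 2.0th. These 3 peaks touched each other, but their overlaps stayed under the limit for a shared site. The site of all 3 factors of FN1 lay in intron 15, with fold enrichments of 4.40, 4.65 and 4.51.

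Sites of all 3 factors numbered 19, at 15 genes, 26.3% beside 29.9% of all protein-coding genes. Within length classes the share was 28.1% (15.6 to 45.4) beside 44.2% over 100 kb and 27.8% (12.5 to 50.9) beside 38.8% from 30 to 100 kb. Under 30 kb it was 1 of 7 genes beside 19.9%. The share was thus lower than at all genes in each class, with intervals that include the share of all genes. The genes named here are COL4A2, COL5A1, COL7A1, COL13A1, COL14A1, COL15A1, COL16A1, COL18A1, COL26A1, COL27A1, LAMA1, LAMA5, LAMB2 and FN1, and COL13A1, COL18A1, COL26A1 and COL27A1 had 2 each. Of the 19 sites, 15 lay in introns and 3 in a promoter of the gene itself. The strongest was in intron 1 of COL26A1, where the DPF3a and SMAD4 summits were 1 bp apart and the values were 16.9, 12.1 and 5.15 in the order DPF3a, SMAD4, p300. COL18A1 had both of its sites in intron 2, with 14.7 and 12.7 for DPF3a and 4.0 and 4.07 for p300. At LAMB2, a gene of only 12.0 kb, the summit of the site lay in coding exon 2, with 4.73, 6.40 and 4.25. LAMA1 had a site in intron 11, with 6.03, 7.69 and 5.08.

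The rank of these sites within the p300 list depended on the measure. By fold enrichment, the median percentile of the 19 sites was 80.3 in the DPF3a list, 90.7 in the SMAD4 list and 24.5 in the p300 list. At 15 of the 19 sites the p300 percentile was the lowest of the 3, and the exceptions were LAMA1, LAMB2, FN1 and LAMA5. By −log10 q, which also grows with the number of reads, the medians were 93.5, 86.9 and 66.0, and the p300 percentile was the lowest at 12 sites. The p300 summits of these sites held 15 to 68 reads.

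**Figure D3:**
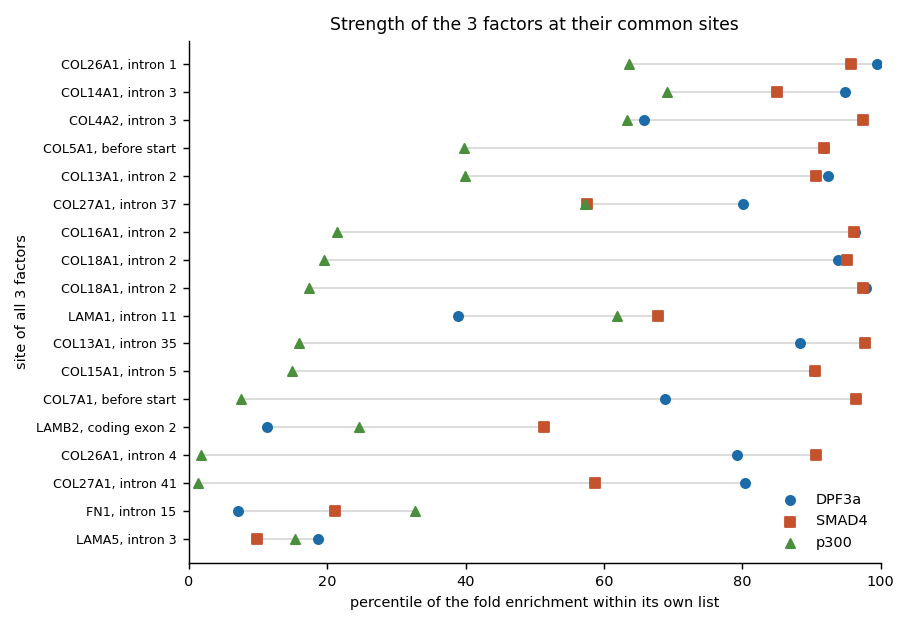
Percentile of the fold enrichment within its own list (horizontal axis) for DPF3a, SMAD4 and p300 at 18 of the 19 sites of all 3 factors (vertical axis, gene and position, ordered by the product of the 3 percentiles). The DPF3a and SMAD4 marks lie to the right of the p300 mark at 14 of the sites drawn, and the p300 mark is the highest of the 3 only at FN1.

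The place of the peaks within the genes was examined next. Promoters began 1000 bp before a transcript start and ended 100 bp after it. Of the DPF3a peaks at these genes, 10.4% (7.0 to 15.1) had their summit in a promoter, beside 29.0% of the DPF3a peaks at all protein-coding genes. For SMAD4 it was 17.8% (13.0 to 24.0) beside 41.1%, and for p300 22.4% (13.6 to 34.7) beside 46.8%. Since a long gene holds more intronic peaks, promoters were also counted once per gene. A DPF3a peak in a promoter of its own was present at 16 of the 57 genes, 28.1% (18.1 to 40.8), beside 41.6% of all genes, a SMAD4 peak at 23, 40.4% (28.6 to 53.3), beside 57.2%, and a p300 peak at 10, 17.5% (9.82 to 29.4), beside 32.9%. Each of these intervals left out the share of all genes.

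The same held among long genes, though not in every shorter class. Of the 32 genes over 100 kb, 21.9% (11 to 38.8) had a DPF3a peak in a promoter of their own beside 51.8% of all genes of that length, 34.4% (20.4 to 51.7) a SMAD4 peak beside 67.0%, and 15.6% (6.86 to 31.8) a p300 peak beside 43.6%. From 30 to 100 kb the DPF3a share was 33.3% (16.3 to 56.3) beside 50%. That of SMAD4 was 44.4% (24.6 to 66.3) beside 67.5%, and that of p300 22.2% (9.0 to 45.2) beside 42%. Only the SMAD4 interval left out the share of all genes in that class. Under 30 kb, 3 of 7 genes had such a DPF3a peak beside 33.5%. For SMAD4 it was 4 beside 48%, and for p300 1 beside 24.1%. Over all lengths, the own-promoter shares were lower among collagens than among laminins in each list, and the difference was not tested. An own-promoter peak of DPF3a was present at 8 of 44 collagen genes, 18.2% (9.51 to 32.0), and at 7 of 12 laminin genes, 58.3% (32.0 to 80.7). For SMAD4 it was 13 collagen genes, 29.5% (18.2 to 44.2), and 9 laminin genes, 75% (46.8 to 91.1). For p300 it was 5 collagen genes, 11.4% (4.95 to 24.0), and 5 laminin genes, 41.7% (19.3 to 68.0). Whether these genes are transcribed in the 786-O cells was not measured here.

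The density of peaks outside promoters was taken over the genes, and again without the members with the most peaks. Per 100 kb of the genes and their upstream regions, 2.26 DPF3a peaks lay outside promoters, beside 1.67 at all protein-coding genes, and the SMAD4 values were 1.73 and 1.32. For p300 the values were 0.511 and 0.582. The densities of all genes, with or without promoters, were not taken within classes of gene length. Without the 5 members with the most peaks of the list, the members' densities were 1.78 for DPF3a, 1.24 for SMAD4 and 0.377 for p300. Leaving out members picked for their many peaks lowers the density by construction. The values of all genes keep their genes with the most peaks, so these densities cannot be set beside them. With promoters included, the densities were 2.52 and 2.35 for DPF3a, 2.10 and 2.24 for SMAD4, and 0.659 and 1.09 for p300. Introns outside the own promoters held 77.3% of the 225 pairs of a DPF3a peak and a gene, 71.1% of the 187 SMAD4 pairs and 59.3% of the 59 p300 pairs. Over 20 kb from any start of the gene lay 33.3% of the DPF3a, 27.3% of the SMAD4 and 27.1% of the p300 pairs.

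Coding exons, outside the own promoters, held 9 of the 59 p300 pairs, of which 5 touched no other list, against 9 of 225 DPF3a pairs. Coding-exon summits farther than 2000 bp from any canonical start made up 8.62% of p300 peaks (3.74 to 18.6), beside 5.88% at all protein-coding genes. The shares were 3.60% (1.84 to 6.95) beside 1.34% for DPF3a and 2.16% (0.844 to 5.43) beside 1.84% for SMAD4.

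**Figure D4:**
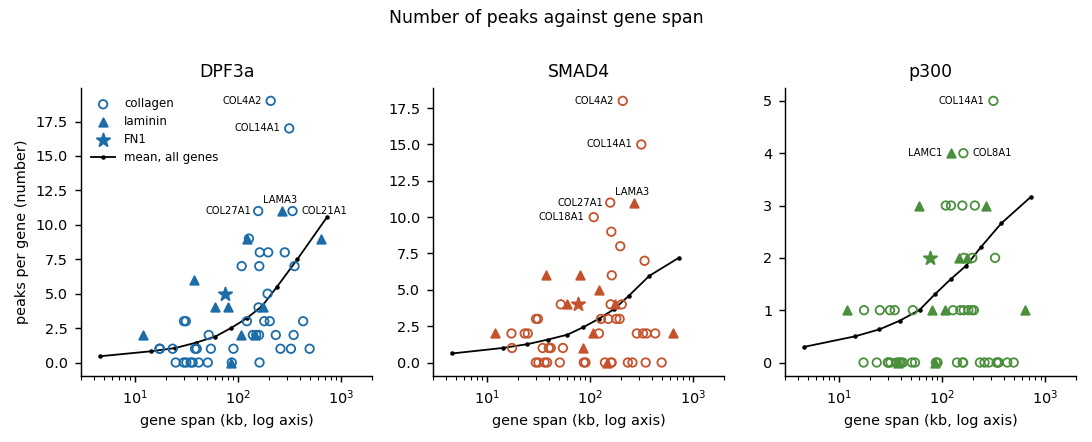
Number of peaks per gene (vertical axis) against gene span in kb (horizontal log axis) in each list; 56 genes are drawn; open circles are collagens, triangles laminins, the star FN1, and the black line joins the mean peak number of all protein-coding genes in bins of span. COL4A2 and COL14A1 lie far above the line for DPF3a and SMAD4, while many long collagens lie on or near 0 for p300.

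The number of peaks was set beside the span of the gene. Over the 57 genes, Spearman's rho between span and peak number was 0.51 in the DPF3a list beside 0.58 over all 20046 genes, 0.19 beside 0.50 in the SMAD4 list and 0.18 beside 0.43 in the p300 list. These are descriptions across genes that share their libraries. Long genes with few peaks included COL25A1, which spans 494.0 kb and had 1 DPF3a peak, and COL19A1, which spans 345.9 kb and had 2. Short genes with many included LAMB3. The 5 genes with the most DPF3a peaks (COL4A2, COL14A1, COL21A1, COL27A1 and LAMA3) held 30.7% of the DPF3a pairs, and 5 genes (COL4A2, COL14A1, COL27A1, LAMA3 and COL18A1) held 34.8% of the SMAD4 pairs. Peak numbers of DPF3a and SMAD4 went together across the genes with a rho of 0.81, those of DPF3a and p300 with 0.55, and those of SMAD4 and p300 with 0.66.

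Sharing between the lists was compared with that at all protein-coding genes. SMAD4 shared 134 of the 222 DPF3a peaks, 60.4% (53.8 to 66.6), beside 60.9%. DPF3a shared 72.4% (65.6 to 78.4) of the SMAD4 peaks, beside 63.9%. p300 shared 9.01% (5.91 to 13.5) of the DPF3a peaks, beside 20.4%, and 13.5% (9.32 to 19.2) of the SMAD4 peaks, beside 26.6%. Outside promoters the shares with p300 were 8.04% (5.01 to 12.7) beside 10.3% for DPF3a and 13.8% (9.22 to 20.2) beside 13.0% for SMAD4, with intervals that include the values of all genes. In promoters they were 17.4% (6.98 to 37.1) beside 45.2% for DPF3a, from 23 peaks, and 12.1% (4.82 to 27.3) beside 46.0% for SMAD4, from 33 peaks. The interval left out the share of all genes in promoters only. Of the p300 peaks, DPF3a shared 34.5% (23.6 to 47.3) beside 43.7%, and SMAD4 43.1% (31.2 to 55.9) beside 54.3%. Outside promoters these shares were 37.8% (25.1 to 52.4) beside 32.4% and 48.9% (35.0 to 63.0) beside 37.7%. In promoters, from 13 peaks, both were 23.1% (8.18 to 50.3), beside 56.6% for DPF3a and 73.1% for SMAD4. For the p300 peaks too, the intervals left out the share of all genes in promoters only. In lists of equal size, p300 shared 15% of the DPF3a and 25.8% of the SMAD4 peaks at these genes. The shares at all protein-coding genes were not recomputed for such lists.

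**Figure D5:**
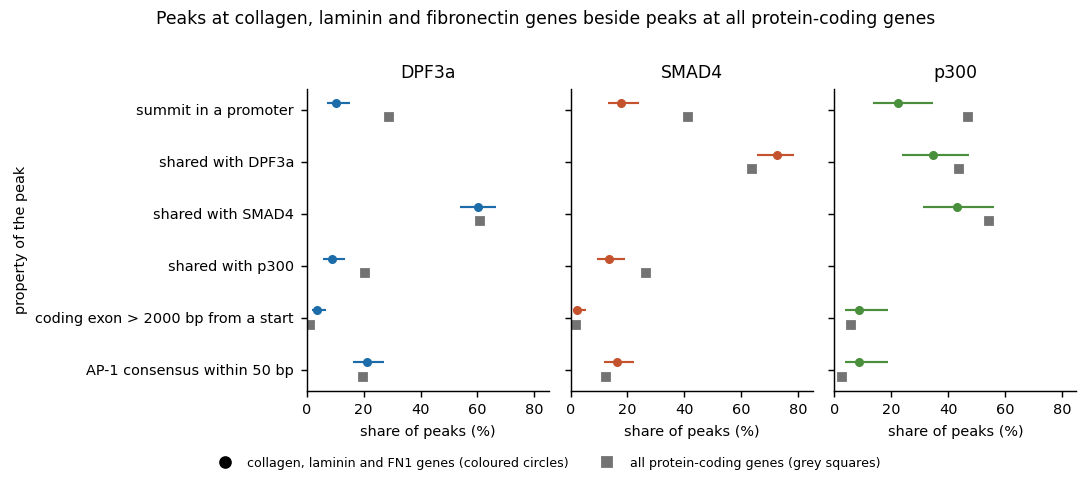
Share of peaks in percent (horizontal axis) with each property (vertical axis) for the collagen, laminin and FN1 genes (coloured circles) and all protein-coding genes (grey squares) in each list; bars are Wilson intervals at 95%. The promoter shares (10.4%, 17.8% and 22.4%) and the shares of DPF3a and SMAD4 peaks shared with p300 lie left of the grey squares, and the AP-1 share lies right of it for p300.

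Peak strength was described by the rank of the fold enrichment within a list. The median percentile at these genes was 50.8 (43.0 to 61.3) for DPF3a beside 44.9 at all protein-coding genes, 41.3 (33.5 to 50.2) for SMAD4 beside 52.1, and 40.2 (28.3 to 52.3) for p300 beside 46.5. The median summit held 28.5 reads in the DPF3a list, 34 in the SMAD4 list and 23 in the p300 list. Among the top 10% of their list were 11.7% of the DPF3a peaks (26 of 222) beside 8.11% at all protein-coding genes, 9.73% of the SMAD4 peaks beside 10.1%, and 6.90% of the p300 peaks beside 10.7%.

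The AP-1 consensus, the recognition letters of FOS and JUN dimers, was the most frequent of the 8 in the DPF3a windows of these genes. It was present in 21.2% (16.3 to 27.0) of DPF3a windows beside 19.7% at all protein-coding genes, in 16.2% (11.6 to 22.2) of SMAD4 windows beside 12.6%, and in 8.62% (3.74 to 18.6) of p300 windows beside 2.83%, which are 5 windows. In promoters it was present in 17.4% (6.98 to 37.1) of 23 DPF3a windows beside 7.45% at all protein-coding genes. For SMAD4 it was 15.2% (6.65 to 30.9) of 33 promoter windows beside 3.88%, and for p300 0% of 13 beside 1.07%. Of these intervals, only that of SMAD4 left out the share of all genes. Promoter summits made up a smaller share of the peaks at the members. Outside promoters the DPF3a share was 21.6% (16.5 to 27.8) beside 24.8% and the SMAD4 share 16.4% (11.4 to 23.2) beside 18.7%, which turns the direction of both differences, while that of p300 was 11.1% (4.84 to 23.5) beside 4.38%. Of the DPF3a peaks that SMAD4 shared, 24.6% (18.1 to 32.6) held it, and of the others 15.9% (9.72 to 25), beside 19.2% and 20.5% at all protein-coding genes. The shared peaks had the higher share at these genes and the lower one at all genes, though the intervals of the members overlap and include the values of all genes. Of the SMAD4 peaks, 20.1% (14.2 to 27.7) of those shared with DPF3a held it and 5.88% (2.02 to 15.9) of the others, beside 16.2% and 6.32% at all protein-coding genes. RUNX was present in 9.01% of DPF3a windows (5.91 to 13.5) beside 6.19%. The SMAD palindrome was found in a DPF3a and a SMAD4 window of COL21A1, at a shared site, and in a SMAD4 window of COL9A3 in intron 10.

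The enzymes and partners that act on the same matrix were counted from a list of 35 genes. DPF3a had a peak at 29 of the 35, SMAD4 at 30 and p300 at 17, to be read beside the 65.8%, 72.2% and 51.5% of all protein-coding genes. All 19 collagen-modifying enzymes and helpers had a SMAD4 peak, 18 had a DPF3a peak and 13 a p300 peak, and 7 of them had a site of all 3 factors. These were the prolyl hydroxylase chains P4HA1 and P4HA2, the lysyl hydroxylase PLOD3, the glycosyltransferase COLGALT2, the crosslinking enzymes LOXL2 and LOXL4, and the propeptidase ADAMTS2. Such a site was present at 29.9% of all protein-coding genes and at 38.8% of those from 30 to 100 kb. The median span of the 19 genes was 41.3 kb. Of all genes from 30 to 100 kb, 78.3% had a DPF3a, 83.6% a SMAD4 and 63.8% a p300 peak. LOXL2 had 11 DPF3a, 13 SMAD4 and 4 p300 peaks. Of the 4 basement membrane partners, NID1, NID2, HSPG2 and AGRN, none had a p300 peak, while DPF3a had a peak at each. Of 12 matrix glycoproteins and proteoglycans, 7 had a DPF3a peak, 8 a SMAD4 peak and 4 a p300 peak, and the proteoglycans BGN and DCN had no peak in any list.

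Some measurements bear on the p300 counts. The 8 member genes on chromosomes 5, 7 and 8 held 12 of the 58 p300 peaks, of which 7 touched no other list, whereas 11 of the 46 p300 peaks of the other 49 genes touched none. Of the p300 peaks at all protein-coding genes, 27.4% touched no other list. Without the 8 genes, p300 had its 46 peaks at 25 members. None of the 21 values recomputed without them moved, by the limits given under the dependence on processing. The share of peaks that touched no other list was not among these values. The cause of its difference between the chromosomes was not tested, and no input library is named for the peak calls.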

How the data were processed

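ChIP-seq libraries of 3 factors (DPF3a, SMAD4 and p300; 2 each) came from 786-O cells. According to its methods, the study used cutadapt to trim adapters, mapped reads to hg38 with Bowtie2 2.3.5.1, removed mapping qualities under 30, mitochondrial reads and Picard duplicates, and called peaks with MACS2 2.2.5. How both libraries were combined into 1 list is not given in the sources used here.

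In the deposited lists the score is an integer, −log10 q multiplied by 10, and the authors kept those above 50. The deposited fold enrichment is a ratio of pileup to background, and −log10 p and −log10 q are also deposited. Summit heights in reads were recovered from fold enrichment and −log10 p, with an error in −log10 p of at most 8.6e-04. Each value was used within its own list.

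Genes, transcript starts and exons came from GENCODE 44, with exons of canonical transcripts. Summits were assigned to genes plus 5000 bp upstream. The overlap code gave the same counts as bedtools 2.31.1 in 6 of 6 combinations of lists and was tested on simulated data, as was the assignment. No test across genes was run. The members and lists were chosen with earlier results of these data known. Genes are named where they have a site of all 3 factors, are among the 5 with the most peaks or the 3 strongest peaks of a list, have no peak, or form a known heteromer. Other genes, such as those of a single list, were named after their values were seen. Values of 1 member are not reported here by name, though it stays in the counts.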

Additional observations from a re-analysis of the deposited data

How the results depend on the processing

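Of 170 values recomputed under alternatives, 128 stayed within their interval or within 1.5 times the count and 42 moved. The values of all protein-coding genes were not recomputed under these alternatives. Nothing moved with 20000 bp upstream, with the gene alone, without the members on chromosomes 5, 7 and 8, or without summits in coding exons more than 2000 bp from a start. No paired analysis was possible because each factor has 1 list made from both replicates, and for the same reason no replicate could be left out. The score threshold moved the most values, and those of p300 above all. With scores over 100, p300 had 10 peaks at 9 members, 9 members had a peak in every list, 5 a site of all 3 factors, and DPF3a had 143 peaks; p300 then shared 3.50% of DPF3a and 3.85% of SMAD4 peaks, DPF3a shared 65.4% of SMAD4 peaks, and the p300 promoter share was 10% and its median percentile 24.9. With scores over 200, 29 members had a DPF3a peak and 2 a p300 peak, 2 had a peak in every list and 1 a site of all 3 factors. The peaks then numbered 75 for DPF3a, 67 for SMAD4 and 2 for p300, p300 shared 1.33% of DPF3a and 1.49% of SMAD4 peaks, DPF3a shared 62.7% of SMAD4 peaks, the p300 promoter share was 50%, and the AP-1 share was 33.3% for DPF3a and 0% for p300. In equal-size lists DPF3a had 100 peaks at 31 members and SMAD4 62 peaks, SMAD4 shared 47.0% and p300 15% of DPF3a peaks, p300 shared 25.8% of SMAD4 peaks, and the AP-1 share for DPF3a was 29.0%. With an overlap of 1 bp, SMAD4 shared 68.0% and p300 14.9% of DPF3a peaks, and DPF3a 80.5% of SMAD4 peaks. The DPF3a promoter share was 15.3% with 1000 bp on both sides and 6.76% with starts of protein-coding transcripts, where that of SMAD4 was 12.4%. With −log10 q in place of fold enrichment, the median p300 percentile was 52.7 over all member peaks and 66.0 at the sites of all 3 factors. Without the 5 members with the most peaks, the density outside promoters was 1.78 DPF3a and 1.24 SMAD4 peaks per 100 kb. This density and the rank of the sites by −log10 q were chosen after seeing the data. In windows of 100 bp to either side, the AP-1 share was 36.0% for DPF3a and 27.6% for SMAD4. Higher thresholds and equal-size lists hold fewer peaks by construction, and leaving out the members with the most peaks lowers the density by construction. The cause of the other shifts was not tested.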
